A study of Mus musculus with 10 samples.

Results

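Chromatin accessibility and H3K4me3 were examined at 10 genes that growth factor signalling through ERK is known to switch on in many cell types. They are the Sprouty genes *Spry1*, *Spry2* and *Spry4*, the Sprouty-related genes *Spred1* and *Spred2*, the phosphatase genes *Dusp4* and *Dusp6*, and the ETS factor genes *Etv1*, *Etv4* and *Etv5*. ATAC-seq peaks were taken where they lay in the body of one of these genes or within 50 kb of it and where the nearest start of a protein-coding transcript was that of the same gene. Merging the 408 peaks that met this rule over 6 libraries gave 85 sites, of 108367 sites in the whole genome, with 5 sites at *Spred1* (the fewest) and 13 at *Spred2* (the most). The same rule gave 18 H3K4me3 peaks of 17186 in quiescent cells and 16 of 15980 in activated cells. On mm10 the GENCODE annotation places *Spry1* at chr3:37639947-37644598, *Spry2* at chr14:105891947-105896819 and *Spry4* at chr18:38586247-38601415. It has *Spred1* at chr2:117121374-117182279 and *Spred2* at chr11:19924375-20024026, and *Dusp4* at chr8:34807297-34819894 and *Dusp6* at chr10:99263231-99267489. The ETS factor genes are *Etv1* at chr12:38779380-38870484, *Etv4* at chr11:101769742-101785371 and *Etv5* at chr16:22381309-22439719.

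The cells were primary neural stem and progenitor cells (NSPCs) from the brains of C57BL/6 mice at postnatal day 5. Activated NSPCs grew in medium with both FGF2 and EGF (20 ng/ml). Quiescent NSPCs were kept for 4 days with BMP4 (25 ng/ml) and the same dose of FGF2 but without EGF (the methods of the study give a shorter time before ATAC-seq than the labels), and reactivated NSPCs went from that medium back to FGF2 and EGF for 9 to 12 days. FGF2 was therefore present in all 3 states, whereas EGF was withdrawn and BMP4 added in quiescence. The effects of the 2 factors cannot be told apart. Time in culture also differed among the states, and its effect cannot be told apart from that of the medium. ATAC-seq, in which the Tn5 transposase marks open DNA, had 2 biologically independent libraries per state, and ChIP-seq for H3K4me3, a histone mark of active promoters, had 1 library per state with its own input. Such cultures hold cells of more than 1 kind, and the share of cells with an open site cannot be told apart from how open it is in each cell.

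Receptors for FGF and EGF act through RAS, RAF and MEK to activate the kinases ERK1 and ERK2. Sprouty and Spred proteins hold the cascade back at the level of RAS and RAF, and DUSP4 and DUSP6 remove phosphate from ERK in the nucleus and in the cytoplasm, respectively. ETV1, ETV4 and ETV5 form the PEA3 group of ETS transcription factors, which carry FGF signals to the genome. All 3 are repressed by Capicua (CIC), a DNA-binding protein that ERK signalling relieves from its targets, and the genes of the negative regulators are themselves switched on by the signal they limit.

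The sequences of 7 sites on which the results below turn are shown here. The 7 stretches are 200 bases around the summit, read from GRCm38.p6 (mm10) on the plus strand and credited to RefSeq, and none overlaps an annotated exon. Site names give the distance of the summit from the annotated start of the gene, with a minus sign upstream. Capitals mark exact matches, on either strand, to TGAATGAA or TGAATGGA (the octamers that CIC is known to bind), to TGANTCA (AP-1) and to CAGCTG (an E-box of proneural factors). The *Spry2* site is shown because it differed most between quiescent and activated cells, although its printed 200 bases hold no match, and the *Dusp4* site because it was the one called in activated and reactivated cells. The other 5 are the sites away from promoters, open in at least 1 state and with no state of unlike libraries, that hold CIC octamers in these 200 bases.
Spry2 +45.3 kb (chr14:105851449-105851648): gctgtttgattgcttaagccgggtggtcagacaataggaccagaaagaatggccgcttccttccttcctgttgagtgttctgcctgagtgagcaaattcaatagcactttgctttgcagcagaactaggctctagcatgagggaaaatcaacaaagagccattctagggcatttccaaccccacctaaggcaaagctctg
Dusp4 +8.0 kb (chr8:34815211-34815410): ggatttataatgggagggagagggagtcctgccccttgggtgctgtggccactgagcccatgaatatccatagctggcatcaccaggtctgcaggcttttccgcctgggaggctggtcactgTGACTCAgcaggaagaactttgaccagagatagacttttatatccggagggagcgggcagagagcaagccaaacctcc
Dusp6 +6.2 kb (chr10:99269380-99269579): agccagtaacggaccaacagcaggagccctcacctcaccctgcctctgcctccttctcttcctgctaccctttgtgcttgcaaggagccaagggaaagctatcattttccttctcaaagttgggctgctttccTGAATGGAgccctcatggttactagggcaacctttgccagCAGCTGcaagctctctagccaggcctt
Etv1 +9.4 kb (chr12:38788692-38788891): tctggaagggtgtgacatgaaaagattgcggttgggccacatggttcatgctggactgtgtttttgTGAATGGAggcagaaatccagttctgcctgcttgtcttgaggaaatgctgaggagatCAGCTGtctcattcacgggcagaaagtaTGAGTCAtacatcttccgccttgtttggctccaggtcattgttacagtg
Etv1 +33.2 kb (chr12:38812477-38812676): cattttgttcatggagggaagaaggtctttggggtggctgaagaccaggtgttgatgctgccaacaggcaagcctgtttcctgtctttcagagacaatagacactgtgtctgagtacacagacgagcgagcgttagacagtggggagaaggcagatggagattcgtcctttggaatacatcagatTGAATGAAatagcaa
Etv4 +12.8 kb (chr11:101772495-101772694): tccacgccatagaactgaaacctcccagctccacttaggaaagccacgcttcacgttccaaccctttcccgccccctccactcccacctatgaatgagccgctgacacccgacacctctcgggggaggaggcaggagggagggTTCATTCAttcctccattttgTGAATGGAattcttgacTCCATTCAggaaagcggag
Etv5 +10.6 kb (chr16:22428998-22429197): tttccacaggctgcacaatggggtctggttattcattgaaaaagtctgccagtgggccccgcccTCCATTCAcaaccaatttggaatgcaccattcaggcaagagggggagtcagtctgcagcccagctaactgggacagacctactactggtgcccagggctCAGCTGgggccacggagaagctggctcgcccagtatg

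The lists held 47323 to 60881 peaks in quiescent and activated cells and 106586 to 107137 peaks in reactivated cells. Each peak has a fold enrichment, the number of fragments piled up at its summit over the local background of the same library, with 1 added to each. The background was 6.01 to 12.1 fragments over the genome, and no peak was called below a pileup of 16 to 25, depending on the library, so that weaker sites were not detectable. Promoter peaks were present at 7 or 8 of 8 genes of neural stem and progenitor cells in every library (*Slc1a3* lacked one in activated cells), at 2 to 5 of 5 neuronal genes, at 0 or 1 of 4 oligodendrocyte genes, at 1 of 5 microglial genes and at 0 or 1 of 4 endothelial genes. The neuronal count was 5 in both reactivated libraries and 2 to 4 in the other libraries, and its part in the results was not tested.

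The promoters of all 10 genes were open in all 6 libraries. A peak within 1 kb of a start was present in every library at 52.2% of 21842 protein-coding genes, and at 10 of the 10 genes here. In each quiescent and activated library the peaks were strongest at *Etv5* and *Dusp6*. At *Etv5*, the PEA3 factor gene known for its part in stem cell maintenance, the strongest promoter peak had a fold enrichment of 12.5 and 11.1 in the quiescent libraries. The activated libraries had 11.5 and 11.01, and the reactivated libraries 10.98 and 11.6. *Dusp6*, the gene of the ERK-specific phosphatase, gave 10.9 and 12.85, 12.2 and 11.3, and 9.22 and 9.89, in the same order of states. The values of quiescent and activated cells overlapped at both genes, and at *Dusp6* the reactivated libraries were the lowest. *Spry2*, whose product limits RAS activation, gave 9.27 and 10.3, 10.49 and 10.4, and 9.01 and 11.6, and its reactivated range spanned those of the other states. *Etv1*, a PEA3 factor gene, gave 9.97 and 9.33, 8.54 and 7.71, and 10.99 and 11.5, without overlap between any of its states.

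The other 6 promoters had ranges that overlapped one another. At *Spry1* the fold enrichment lay between 6.64 and 8.56, at *Spry4* between 5.47 and 8.04, at *Spred1* between 5.67 and 8.08, at *Spred2* between 5.17 and 8.05, at *Dusp4* between 5.79 and 8.86, and at *Etv4* between 4.67 and 10.1. Each of the 60 values was above the middle of its own list, at percentiles of 54.0 to 98.0. *Dusp4* and *Etv4* were lower in the quiescent and activated libraries, at 5.79 to 7.39 and 4.67 to 7.82, than in the reactivated libraries. The latter had 8.83 and 8.86 at *Dusp4* and 8.70 and 10.1 at *Etv4*. At *Spry4*, *Spred1* and *Spred2* the reactivated libraries were the lowest, with 5.47 and 6.55, 5.67 and 6.12, and 5.17 and 5.45. After centring of each library on its median (below), *Dusp4* in reactivated cells differed by -0.31 from activated cells on the log2 scale (adjusted p = 0.286, limma). The plot of promoter peaks shows these values by library.

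**Figure D1:**
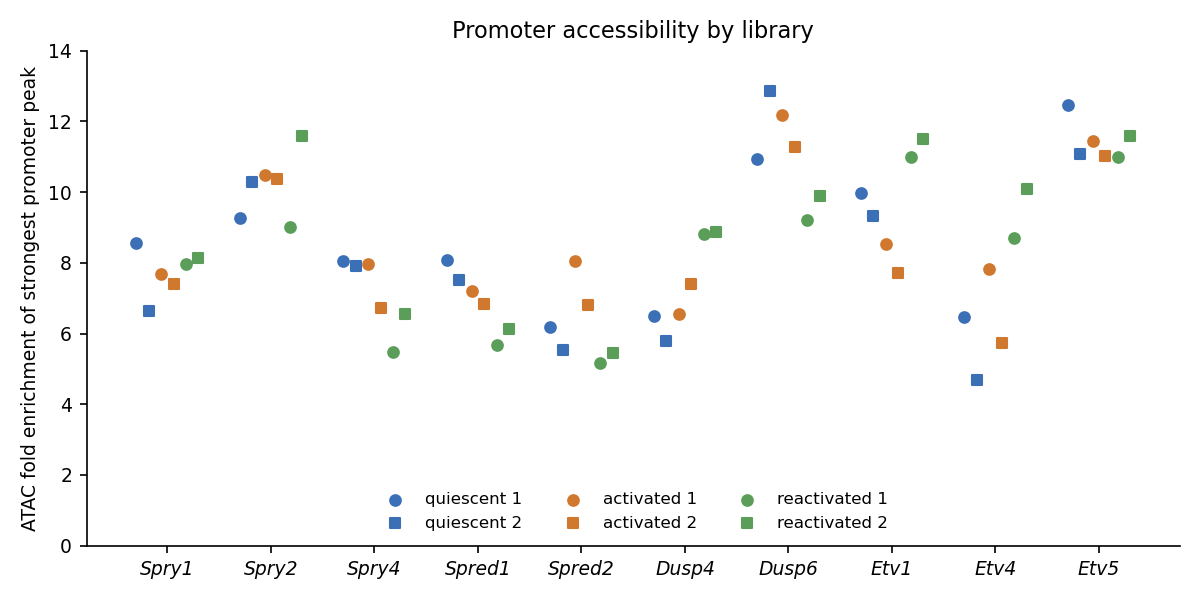
ATAC fold enrichment of the strongest peak within 1 kb of a start (vertical axis, linear) at the 10 genes, with 1 point per library (blue, quiescent; orange, activated; green, reactivated; circles, library 1; squares, library 2). All 60 points lie between 4.67 and 12.85, with *Dusp6* and *Etv5* at the top in quiescent and activated cells.

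Of the 85 sites, 17 came within 1 kb of a start and 68 did not, where 87405 of all 108367 sites did not. A state was called open at a site with a peak in both of its libraries and closed with a peak in neither. By this rule 24 sites were open in all 3 states, 13 in reactivated cells alone, 5 in quiescent and reactivated cells, and 1 in activated and reactivated cells. None was open in quiescent cells alone, in activated cells alone or in those 2 states without the third, and the other 42 had a peak in 1 of the 2 libraries of at least 1 state. Over all 108367 sites the shares were 21.3% open in all states, 14.8% in reactivated cells alone, 3.44% in quiescent and reactivated cells, 3.89% in activated and reactivated cells, 1.65% in quiescent cells alone, 0.0923% in activated cells alone, 0.117% in both of these and 54.7% with unlike libraries. The shares of the 85 sites were 28.2%, 15.3%, 5.88% and 1.18% for the first 4 patterns and 49.4% for the last. They were close to those of the genome, and that of activated and reactivated cells rested on 1 site. The 24 sites open in all states included 13 of the 17 promoter sites (76.5%, against 53.7% of all promoter sites), at least 1 at every gene. Of the 68 sites away from promoters, 11 were open in all states (against 13.6% of all such sites), 13 in reactivated cells alone (15.5%), 4 in quiescent and reactivated cells (4.00%) and 1 in activated and reactivated cells (4.32%). A further 39 had unlike libraries (60.4%), and no site fell into the classes of quiescent cells alone (2.00%), activated cells alone (0.105%) or both (0.138%).

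**Figure D2:**
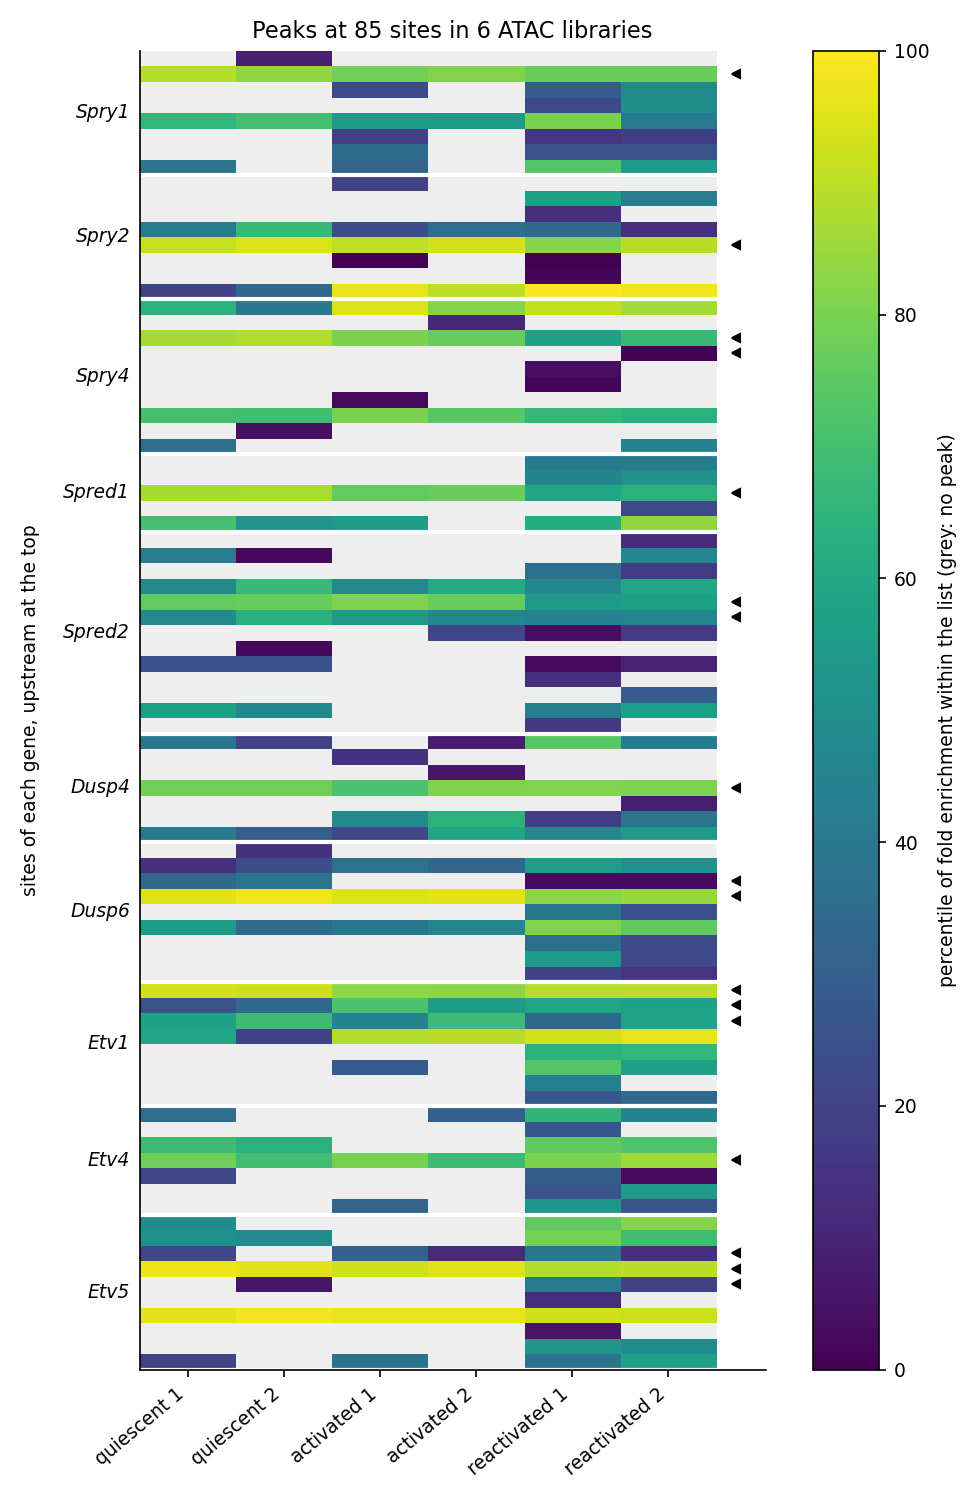
Each row is 1 of the 85 sites, ordered from upstream to downstream within each gene, and each column 1 ATAC library. Colour gives the percentile of the fold enrichment within the list, grey marks no peak, and arrowheads mark the 17 sites within 1 kb of a start. Of the 17 promoter rows 13 are filled in all 6 columns, at least 1 at every gene, and more rows are filled in the 2 reactivated columns (69 and 65) than in the others (31 to 39), which is 81.2% and 76.5% against 36.5% to 45.9%, where all 108367 sites have 74.5% and 75.1% against 33.3% to 43.3%.

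Matches to the CIC octamers, TGAATGAA or TGAATGGA, were frequent among the sites. Within 200 bp around the summit, 8 of the 85 sites (9.41%) held at least 1 match, against 2.68% of all 108367 sites. These were the promoter sites of *Dusp4* and *Etv4* and the sites *Dusp6* +6.2 kb, *Etv1* +9.4 kb, *Etv1* +33.2 kb, *Etv1* +64.5 kb, *Etv4* +12.8 kb and *Etv5* +10.6 kb. In the intron of *Etv4* there were 3 matches within the 200 bp. Over the whole length of the sites the count was 17 of 85 (20.0%), against 4.28% of all sites. Among promoter sites it was 9 of 17 (52.9%), against 3.38% of all promoter sites, and within the 200 bp 2 of 17 (11.8%), against 1.17%. The 17 sites belonged to 9 genes, all but *Spred1*. The median site was 309 bp long here and 282 bp over the genome, and the median promoter site 684 and 557 bp, while the 9 promoter sites with a match were 314 to 1526 bp long. A longer site has more room for a match, and the part of site length in these counts was not tested.

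The other motifs were nearer to the genome in their shares or absent. CAGCTG was in the 200 bp of 23 of 85 sites (27.1%), against 21.6% of all sites, and in the whole length of 35 (41.2%), against 30.1%. TGANTCA was in the 200 bp of 5 sites (5.88%), against 7.62%. No site held CCGGAAGT, an ETS site (1.08% of all sites), or TTGGC and GCCAA with 5 bases between them, an NFI site (0.105%), in its 200 bp or in its whole length. Both are so rare over all sites that their absence from 85 sites does not show a lack of them. Only these letters were searched for, so that variants of each site were not counted. A match is a run of letters and was not tested for binding.

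The comparison of quiescent with activated NSPCs asks how these loci differ after withdrawal of EGF with BMP4, where time in culture differed as well. It was made on log2 fold enrichment with limma at the 23116 sites with a peak in every library, 24 of them at the 10 genes, after each library was centred on its median. Each log2 difference is thus relative to the median site. At an adjusted p below 0.05, 3 of the 24 sites were higher in activated cells and none in quiescent cells, against 6.35% and 7.05% of all tested sites. The 3 are away from promoters, where 11 of the 24 lie and where 10.6% of all tested sites were higher in activated and 9.63% in quiescent cells.

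The largest difference was at *Spry2*, 45.3 kb downstream of its start, in sequence between genes (chr14:105851051-105851955). The fold enrichment was 3.02 and 2.90 (quiescent), 13.1 and 9.27 (activated) and 19.5 and 17.0 (reactivated). The summit pileups were 22 and 37 fragments, 106 and 64, and 212 and 174. The states did not overlap, and the reactivated values were the highest. The quiescent value was lower than the activated value by a log2 difference of -1.67 (SE 0.18, adjusted p = 2.62e-06), a 3.19-fold difference relative to the median site. In the reactivated lists the peak stood at percentiles of 99.6 and 98.0, above the promoter of the same gene in both. In the quiescent lists, which are shorter, it stood at 20.3 and 32.8. Ranks from lists of unlike length do not measure a change. Reactivated cells exceeded quiescent cells by a log2 difference of 1.75 (SE 0.18, adjusted p = 9.30e-07) and differed from activated cells by 0.07 (SE 0.18, adjusted p = 0.797). Without centring the latter difference was 0.73 and passed the test (adjusted p = 0.0105, limma). With the median of the subpeaks in place of the highest, the difference from quiescent cells was 0.29 (adjusted p = 0.669, limma).

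At *Etv1* the site lay 9.4 kb downstream of the start, in an intron (chr12:38788609-38788969). The fold enrichment was 4.60 and 2.52 (quiescent), 9.95 and 9.13 (activated) and 13.1 and 15.8 (reactivated), again without overlap. The pileups were 34 and 32, 74 and 63, and 97 and 120 fragments. The quiescent value was lower by a log2 difference of -1.26 (SE 0.22, adjusted p = 0.000347). Reactivated cells were higher than quiescent cells by 1.20 (SE 0.22, adjusted p = 0.000272) and differed from activated cells by -0.06 (SE 0.22, adjusted p = 0.870), or by 0.59 without centring (adjusted p = 0.0582, limma). In its printed sequence the site holds a CIC octamer, an E-box and an AP-1 match.

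*Spry4*, a Sprouty gene on chromosome 18, had such a site 30.5 kb upstream of its start, in an intron of the noncoding RNA gene AC133601.1 (chr18:38631300-38632169). The fold enrichment was 4.97 and 3.13 (quiescent), 12.3 and 7.48 (activated) and 11.9 and 10.4 (reactivated). The quiescent libraries were the 2 lowest, and the activated and reactivated values overlapped. The quiescent value was lower by a log2 difference of -1.06 (SE 0.22, adjusted p = 0.00185). Reactivated cells were higher than quiescent cells by 0.62 (SE 0.22, adjusted p = 0.0288) and differed from activated cells by -0.44 (SE 0.22, adjusted p = 0.149). The latter difference was 0.21 without centring (adjusted p = 0.502) and -0.68 with the summit pileup, chosen after seeing the data (adjusted p = 0.0375, limma). The call against quiescent cells was lost in limma without the trend, with an unchanged 0.62 (adjusted p = 0.0519), where the *Spry2* and *Etv1* sites were the 2 that passed. It was also lost without the second quiescent library, where the difference was 0.33. The same held without the first and without the second reactivated library, with 0.49 and 0.75. With missing peaks set to the lowest fold enrichment, no member site passed in that comparison. An H3K4me3 peak covered the summit in both states, with fold enrichment of 9.38 in quiescent and 5.87 in activated cells.

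The sign of the 3 differences between quiescent and activated cells was the same in each alternative in which they were tested. With the median of the subpeaks in place of the highest, none passed, with -1.05 at *Spry2* (adjusted p = 0.252), -1.28 at *Etv1* (adjusted p = 0.0533) and -0.78 at *Spry4* (adjusted p = 0.109, limma). The 3 calls thus depend on taking the highest subpeak. Of the 15 alternatives in which each was tested, the call was kept in 14 at *Spry2*, 14 at *Etv1* and 13 at *Spry4*. Without the second quiescent library, which had the highest background (12.1 fragments), the differences were -1.69 at *Spry2* (adjusted p = 0.000313), -0.87 at *Etv1* (adjusted p = 0.0136) and -0.77 at *Spry4* (adjusted p = 0.0547, limma).

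None of the 13 promoter sites passed the test between quiescent and activated cells. Their log2 differences lay between -0.63 and 0.47, with SEs of 0.15 to 0.26 and a lowest adjusted p of 0.0534, and 4.33% of all promoter sites were higher in quiescent and 1.90% in activated cells, against 0.444% and 4.19% without centring. Over all tested sites these shares were 7.05% and 6.35%, and 1.91% and 9.46% without centring. That p belongs to *Etv1* -0.6 kb, with 0.47. The lowest difference, -0.63 (adjusted p = 0.0715, limma), was at a second promoter site of *Etv1*, 0.1 kb downstream of the annotated start, where the quiescent libraries had 3.20 and 2.97 and the activated libraries 6.57 and 4.74. Without centring it was -0.86 (adjusted p = 0.0261, limma). The other 8 sites away from promoters lay between -0.28 and 0.44. The strongest of them was *Etv5* +10.6 kb, in an intron (chr16:22428745-22429402), with 11.3 and 13.3 (quiescent), 13.2 and 11.7 (activated) and 12.7 and 12.78 (reactivated). Its values overlapped among the states. It stood at or above percentile 92.1 in every list.

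**Figure D3:**
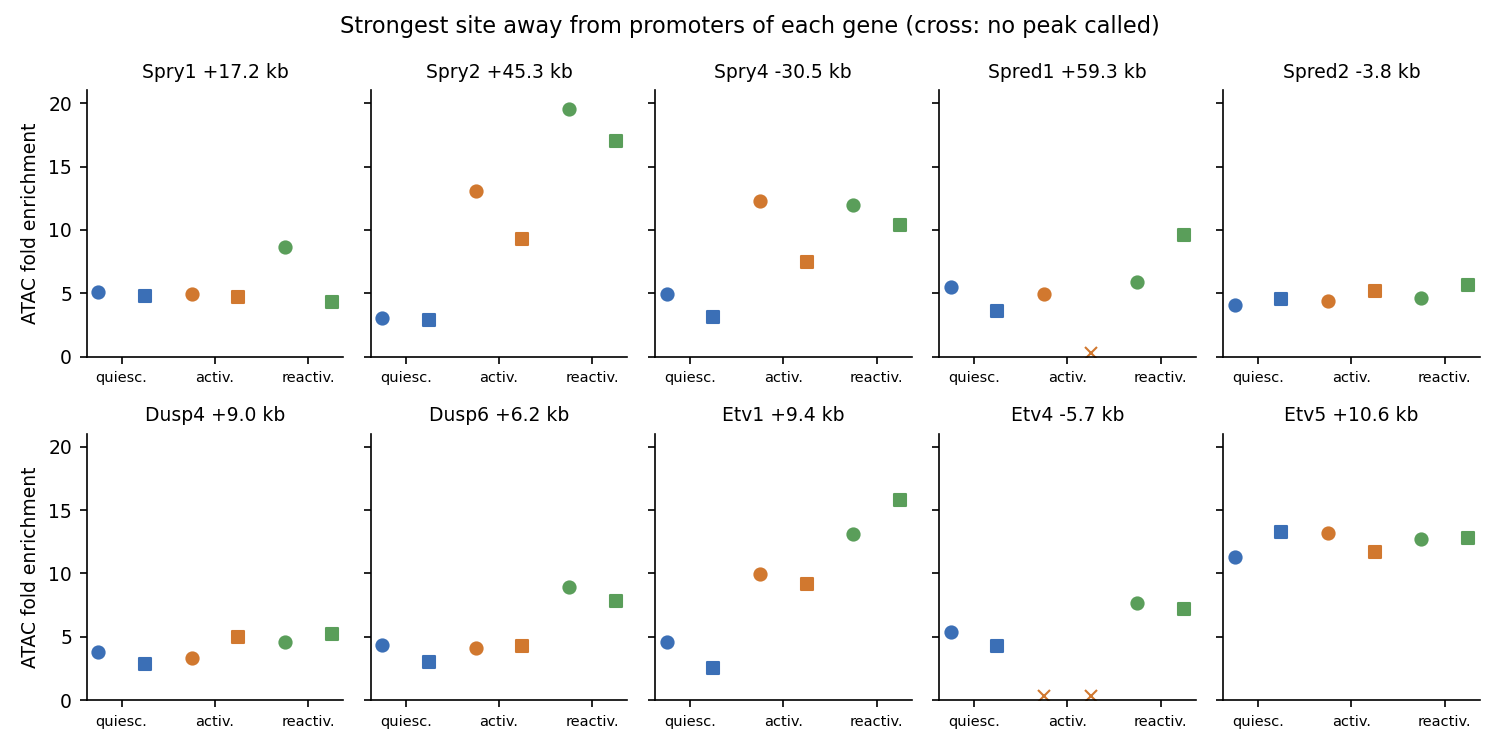
ATAC fold enrichment (vertical axis, linear) in each library at the site away from promoters with the highest mean percentile of each gene (blue, quiescent; orange, activated; green, reactivated; circles, library 1; squares, library 2; crosses, no peak). At *Spry2* +45.3 kb, *Spry4* -30.5 kb and *Etv1* +9.4 kb both quiescent points lie below all the others, whereas the 6 points of *Etv5* +10.6 kb lie between 11.3 and 13.3.

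The remaining genes had weaker leading sites away from promoters. At *Spry1* +17.2 kb the fold enrichment was 4.31 to 5.13 in 5 libraries and 8.62 in the first reactivated library. At *Spred2* -3.8 kb it was 4.05 to 5.68 and at *Dusp4* +9.0 kb 2.83 to 5.22, and at both the activated range overlapped those of the other states. *Dusp6* +6.2 kb, in introns of the noncoding genes Gm34921 and Gm48089, gave 4.38 and 2.98 (quiescent), 4.11 and 4.26 (activated) and 8.93 and 7.84 (reactivated). The reactivated values there were the highest, with log2 differences of 0.35 from activated (SE 0.24, adjusted p = 0.314) and 0.34 from quiescent cells (SE 0.24, adjusted p = 0.289, limma) relative to the median site. Without centring both differences passed the test (adjusted p = 0.00351 and 0.000442, limma), and the second was 1.21. By the summit pileup, chosen after seeing the data, they were 0.69 and 0.88 (adjusted p = 0.0596 and 0.00673, limma), so that the second passed. *Spred1* +59.3 kb, in an exon outside the coding sequence, had no peak in the second activated library and 3.59 to 9.58 in the others.

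A few sites were called in some states and not in others. *Etv4* -5.7 kb, in sequence between genes (chr11:101790716-101791421), had a fold enrichment of 5.35 and 4.28 in quiescent and 7.70 and 7.21 in reactivated cells, with no peak in either activated library. *Etv5* -29.1 kb, in an exon of the neighbouring gene *Dgkg* outside its coding sequence (chr16:22468575-22468999), had 4.21 and 3.44 in quiescent and 8.41 and 6.78 in reactivated cells. *Spred2* +48.3 kb, in an intron (chr11:19972550-19972822), had 4.47 and 3.36 in quiescent and 4.40 and 5.32 in reactivated cells. The other 2 sites of this kind, which were added after their values were seen, are *Spred2* +23.5 kb, with 2.53 to 3.16, and *Dusp6* -0.5 kb, with 2.52 to 3.49. The site called in activated and reactivated cells, *Dusp4* +8.0 kb, lay in an intron (chr8:34815191-34815716) and had 4.38 and 5.42 in activated and 3.26 and 4.17 in reactivated cells. An H3K4me3 peak overlapped it in both states.

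Among the 13 sites called in reactivated cells alone, the strongest were *Etv1* +33.2 kb, with 6.14 and 6.38, *Etv5* +33.5 kb, with 5.07 and 4.79, and *Spry2* -24.2 kb, with 5.34 and 4.39. *Dusp6* had 4 of the 13. With every list limited to its 47037 strongest peaks, the 85 sites became 52, of which 1 was of this kind (1.92%, against 2.31% of all sites). Lack of a call is not lack of accessibility, since the pileup that a call needed varied with the library. With 2 libraries per state, the smallest p that an exact test of calls could give is 0.333, so no test of the patterns was made.

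The comparison of reactivated with activated NSPCs asks whether the loci return to their starting state, where the reactivated cells had a longer time in culture. The median fold enrichment of the 23116 tested sites was higher in the reactivated libraries, by 0.65 on the log2 scale against activated and by 0.87 against quiescent cells, and the quiescent median was lower than the activated one by 0.22. Changes are given relative to these shifts. By limma, 12 of the 24 sites were lower in reactivated than in activated cells (14.5% of all sites were) and none was higher (7.66% of all sites), whereas without centring none was lower (0.472% of all sites) and 3 were higher (52.6% of all sites). Of the 12, 10 were among the 13 promoter sites, where 18.6% of all promoter sites were lower and 4.51% higher. The other 2 were among the 11 sites away from promoters, where 10.7% were lower and 10.7% higher. Taking the median of the subpeaks left 2 member sites lower, and setting missing peaks to the lowest fold enrichment left 0. By the summit pileup, chosen after seeing the data, 7 were lower. The count of 12 was 3 without the first reactivated library, 6 without the second and 7 without the second activated library.

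The promoter of *Spred2* was lowest, with a log2 difference of -1.13 (SE 0.21, adjusted p = 0.00128) relative to the median site and -0.48 without centring. *Dusp6* followed, with -0.95 (SE 0.16, adjusted p = 0.000451) and -0.30 without centring. Setting missing peaks to the lowest fold enrichment gave -1.94 and -1.75, and neither passed the test (adjusted p = 0.0930 and 0.123, limma). At *Spred2* the summit pileups were 130 and 87 fragments in activated and 140 and 166 in reactivated cells. The local backgrounds were 15.3 and 11.9, and 26.3 and 29.7. At *Dusp6* the pileups were 246 and 175, and 320 and 359, over 19.3 and 14.6, and 33.8 and 35.4. The lower fold enrichment of both promoters in reactivated cells thus came with a higher local background and without a lower pileup. *Spry4*, *Spred1*, *Spry2* and *Etv5* gave -0.94, -0.90, -0.68 and -0.64 at their promoters, and -0.29, -0.25, -0.03 and 0.01 without centring, the last of opposite sign. With the median of the subpeaks these 4 did not pass the test, with -0.28, -0.44, -0.89 and -0.36 and adjusted p-values of 0.626, 0.248, 0.0575 and 0.195 (limma), and the difference at *Spry2* was larger than with the highest subpeak. Over the 13 promoter sites the differences without centring lay between -0.48 and 0.48, and 7 of them were below 0. The promoters of *Dusp4* and *Etv4* and the strongest promoter site of *Etv1* did not pass the test, with -0.31, -0.17 and -0.18 relative to the median site and 0.34, 0.48 and 0.47 without centring, of which the last passed the test on that scale (adjusted p = 0.0429, limma). Away from promoters, *Spry4* +22.5 kb and *Etv5* +10.6 kb were lower, with -0.85 and -0.61, against -0.20 and 0.04 without centring. With the summit pileup, chosen after seeing the data, the promoters of *Spred2*, *Dusp6*, *Spry4*, *Spred1* and *Spry2* gave -0.65, -0.46, -0.68, -0.73 and -0.52 and passed the test, whereas the promoter of *Etv5* gave -0.29 (adjusted p = 0.225, limma) and *Etv5* +10.6 kb gave -0.37 (adjusted p = 0.135, limma).

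Against quiescent cells, 13 of the 24 sites were lower in reactivated cells (25.7% of all sites were) and 3 were higher (11.5%), whereas without centring none was lower (0.545% of all sites) and 9 were higher (68.2% of all sites). The 3 were the *Spry2*, *Etv1* and *Spry4* sites that were lower in quiescent than in activated cells, and the comparisons share the quiescent libraries. Of the 13, 10 were among the 13 promoter sites, where 32.0% of all promoter sites were lower and 5.67% higher. The other 3 were among the 11 away from promoters, where 19.7% were lower and 17.0% higher. Taking the median of the subpeaks left 8 member sites lower and 2 higher, and setting missing peaks to the lowest fold enrichment left 0 and 0. By the summit pileup, chosen after seeing the data, 8 were lower and 6 higher. *Spry4*, *Spred1* and *Dusp6* gave -1.29 (SE 0.20), -1.28 (SE 0.20) and -1.19 (SE 0.16), and -0.42, -0.40 and -0.31 without centring. At these 3 promoters both reactivated pileups were above both quiescent ones, and so were the local backgrounds. With the median of the subpeaks, *Spry4* gave -0.22 (adjusted p = 0.677) and *Spred1* -0.56 (adjusted p = 0.114, limma). With the summit pileup, chosen after seeing the data, the 3 gave -0.60, -0.53 and -0.53 and passed the test, whereas the promoters of *Spred2* and *Etv5*, with -1.02 and -0.93 by fold enrichment, gave -0.26 and -0.25 and did not (adjusted p = 0.314 and 0.231, limma). The strongest promoter site of *Etv1* gave -0.65 (SE 0.16, adjusted p = 0.00313, limma) and 0.22 without centring. The promoter of *Etv4* gave -0.10 (SE 0.21, adjusted p = 0.723, limma) and 0.77 without centring (adjusted p = 0.0101, limma).

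**Figure D4:**
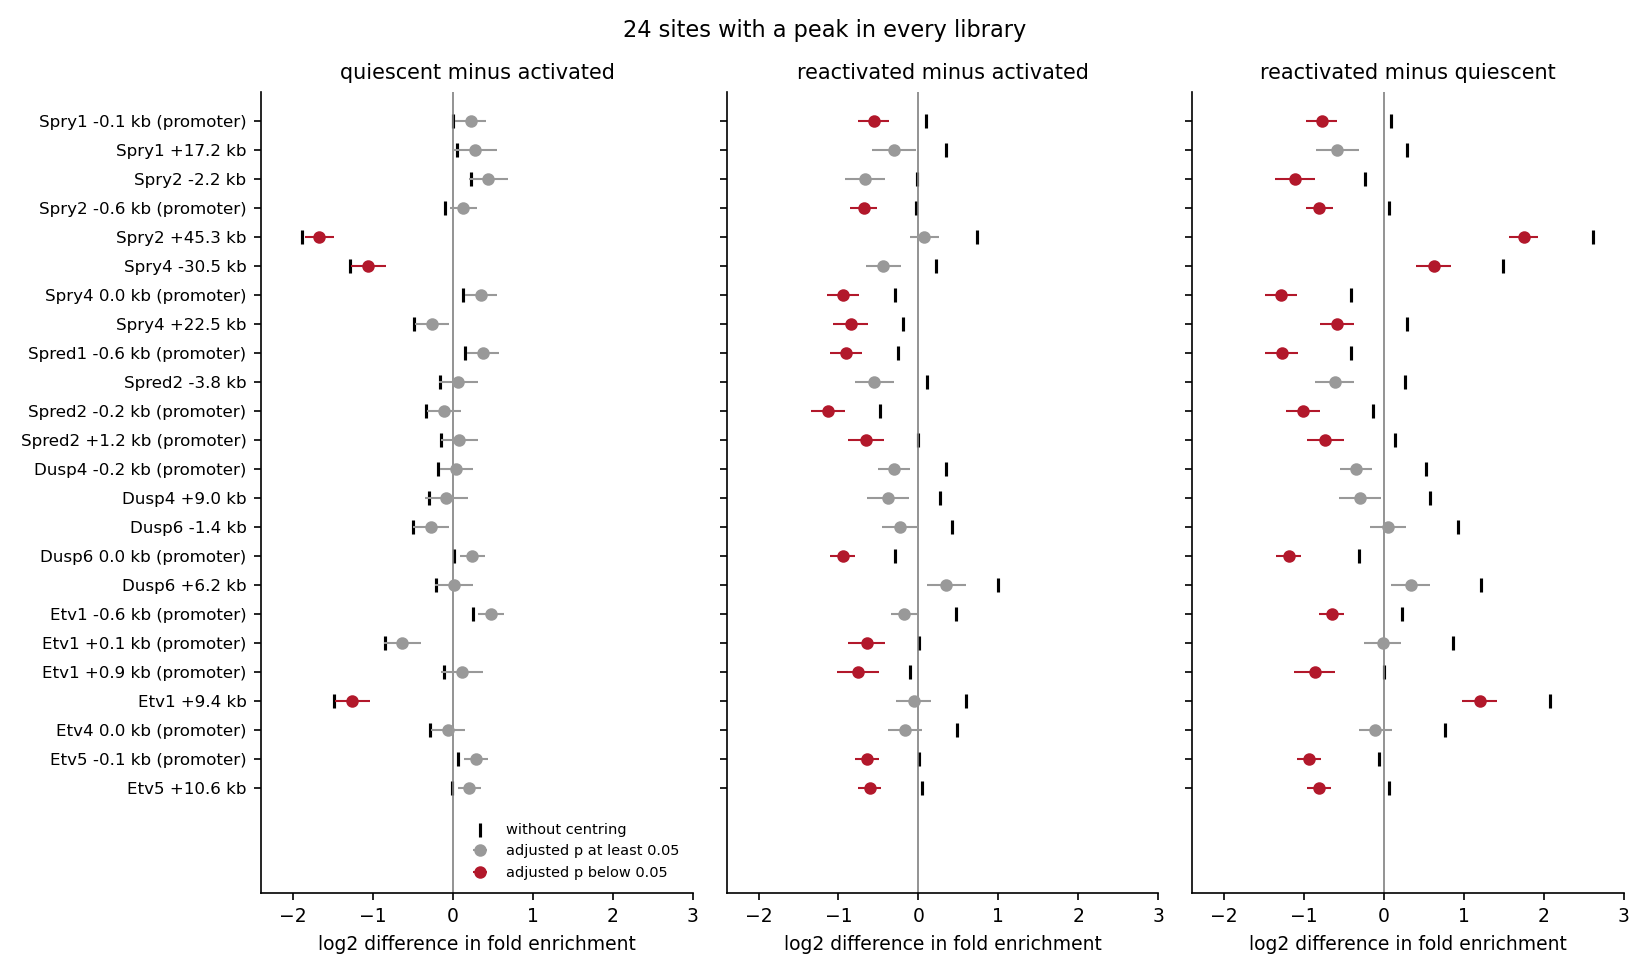
Log2 difference in fold enrichment (horizontal axis) with its SE at the 24 sites with a peak in every library, for the 3 comparisons. Red points have an adjusted p below 0.05 in limma, grey points do not, and black bars give the difference without centring the libraries. Quiescent cells are lower at 3 sites away from promoters, and in the comparisons of reactivated cells the black bars lie 0.65 and 0.87 to the right of the points.

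H3K4me3 marked the promoters of all 10 genes in both states, as it did at 59.3% of protein-coding genes. The peaks were wide. They extended over 9.07 kb in quiescent and 8.59 kb in activated cells at *Spry2*, 8.43 and 8.28 kb at *Dusp6*, 7.73 and 7.09 kb at *Etv5*, 7.21 and 7.40 kb at *Etv1*, and 7.18 and 7.92 kb at *Spry4*. These 5 stood above percentile 99 of width in both lists. *Spred1* followed with 6.27 and 6.69 kb, *Spry1* with 5.72 and 5.63 kb, *Etv4* with 5.37 and 4.65 kb, and *Dusp4* with 4.86 and 5.34 kb. *Spred2* had the narrowest, with 3.32 and 3.38 kb, at percentiles of 89.1 and 91.4. The median of the 10 was 6728 bp in quiescent and 6890 bp in activated cells, against 2064 and 1951 bp over all peaks at promoters.

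The height of the mark was ordered otherwise. Fold enrichment over input was highest at *Spred2*, with 69.6 in quiescent and 53.7 in activated cells. It was 66.7 and 50.8 at *Dusp4* and 59.1 and 53.0 at *Spry2*, and lowest at *Etv1*, with 27.2 and 21.5. Between the states, the log2 difference of quiescent minus activated was 0.11 in the median of 15677 pairs of overlapping peaks and lay between -0.08 and 0.31 in the middle of the distribution (25th to 75th percentile). At the 10 genes it was highest at *Dusp4*, with 0.39, and *Spred2*, with 0.37, and lowest at *Spry4*, with -0.16, and 5 genes were above the median of all pairs and 5 below. All 10 were between the 5th and 95th percentiles of -0.38 and 0.63. With 1 library per state no test was possible.

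**Figure D5:**
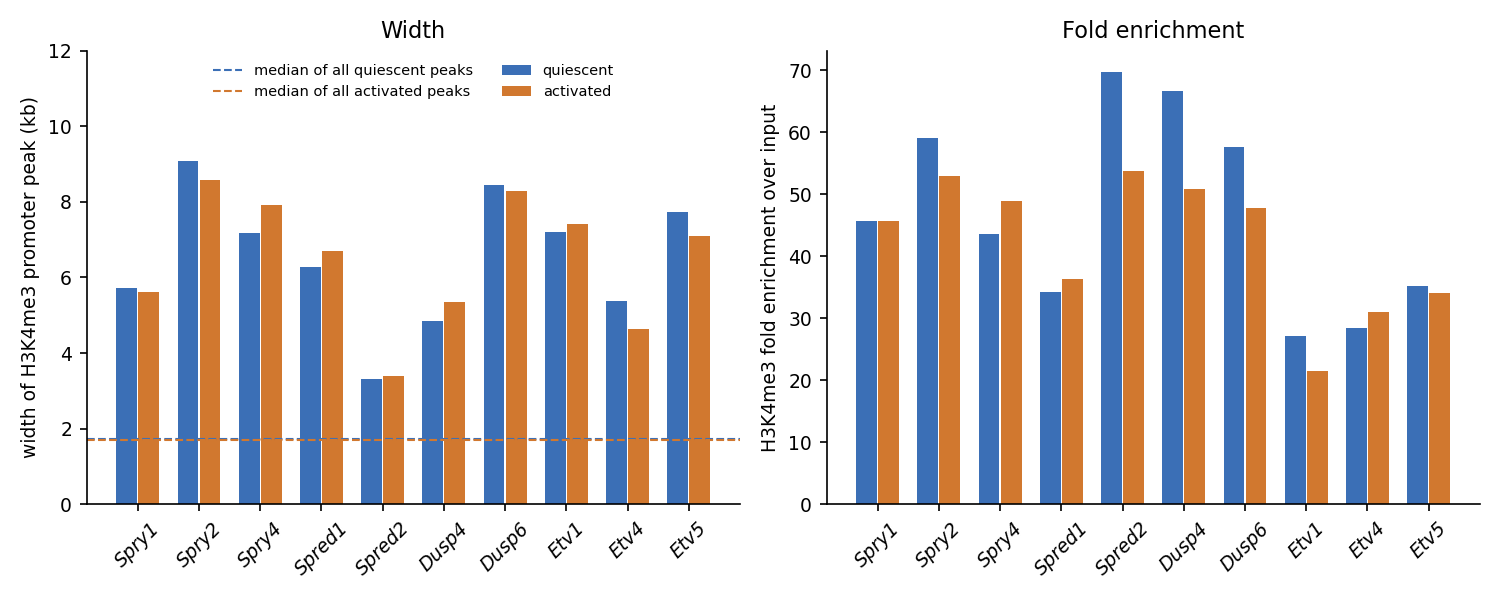
Width in kb (left) and fold enrichment over input (right) of the strongest H3K4me3 peak within 1 kb of a start at the 10 genes, with 1 library per state (blue, quiescent; orange, activated). Dashed lines mark the median width of all peaks (1733 bp in quiescent and 1706 bp in activated cells), and every bar on the left stands above them.

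Away from the promoters, smaller H3K4me3 peaks lay at 5 of the genes in both states, at places that were also open. The peak 4.1 kb upstream of *Spred2* had a fold enrichment of 25.3 in quiescent and 20.6 in activated cells. Those 5.7 kb upstream of *Etv4*, in introns of *Dusp4* and *Etv1*, and upstream of *Spry4* were weaker, with 3.22 to 9.38. At *Etv4* the peak had 4.21 in quiescent and 4.42 in activated cells, although an ATAC peak was called there in quiescent and reactivated cells alone. *Etv5* had 4 peaks of 237 to 399 bp inside the gene, 3 in quiescent and 1 in activated cells, with 2.93 to 3.67.

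The rest of the cascade was described by lists of genes from the same rule. Of 17 genes of the core cascade (adaptors, RAS, RAF, MEK and ERK), all had a promoter peak in the 6 ATAC libraries. At their 29 tested sites 1 was higher in quiescent and 2 were higher in activated cells, where 7.05% and 6.35% of all tested sites were. Of 16 other negative regulators, 15 were in the annotation used and 14 had such a promoter peak, and at 28 tested sites 2 were higher in quiescent and 1 in activated cells. Of 11 other ETS factor genes 9 had it (not *Erg* and *Fli1*), and at 26 tested sites 2 were higher in quiescent and 5 in activated cells. The medians of the log2 differences were 0.11, 0.04 and -0.05, against 0.07 at the 24 sites and 0.07 over all sites. Named after their values were seen, the site higher in activated cells among the other negative regulators was 52.9 kb downstream of the start of *Dusp10*, a phosphatase of p38 and JNK, with a log2 difference of -1.27 (SE 0.21, adjusted p = 0.000217, limma). Of the 5 among the ETS factors, 3 lay at *Ets1*, 31.5 to 128.4 kb downstream of its start, with -0.80, -0.93 and -0.95. The 2 other negative regulator sites higher in quiescent cells lay at *Cbl* and *Dusp7*, with 0.86 and 0.66 (adjusted p = 0.0173 and 0.0326, limma). Those 2 among the ETS factors lay at *Elk3* and *Elk1*, with 0.85 and 0.46 (adjusted p = 0.00247 and 0.0337, limma).

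The limit of 50 kb left some sites out. The sites farthest from a gene body but inside it were *Spred2* -48.3 kb, with a peak of 3.06 in 1 reactivated library, and *Spred2* -46.9 kb, with 1.99 to 4.65 in 3 libraries. Just outside were *Etv5* -53.5 kb, with 4.00 in 1 reactivated library, and *Spry1* -53.6 kb, with 5.19 and 3.76 in activated and 8.51 and 6.43 in reactivated cells and no peak in quiescent cells. Some sites inside the limit lay in other genes, among them *Etv5* -32.2 kb in an intron of *Dgkg* and *Etv4* +21.5 kb in a coding exon of *Dhx8*. They were kept by the rule on the nearest start, which does not show which gene a site acts on.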

How the data were processed

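The authors trimmed the reads (Trim Galore 0.4.0), aligned them to mm10 (Bowtie2 2.2.5), removed duplicates (Picard 1.88, SAMtools 1.3.1) and called peaks with MACS in each library, at an FDR of 0.05 for ATAC-seq, and as broad peaks against input for H3K4me3. Per the study's notes on its libraries, reads of the reactivated libraries were downsampled, and their peak lists are the longest. Tool versions are those of the submitters' processing notes. The deposited fold enrichment is a ratio of pileup to local background in 1 library, with no scaling across libraries by the authors. The authors also gave a −log10 of the p-value and of the q-value for each peak, which rank peaks inside a list. Their score column in the deposited lists repeats the q-value and served no purpose here. Summit positions (deposited as offsets from the peak's start) placed each peak.

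Peaks on autosomes, X and Y were merged over the 6 ATAC lists where they overlapped or abutted, and a site took the highest fold enrichment of its subpeaks in each library. Summit pileups were solved for each peak as the whole number that gives both its enrichment and its Poisson p, with a tolerance of 0.02%. limma 3.58.1 (R 4.3.3, trend in eBayes, Benjamini-Hochberg adjustment over all 23116 sites) compared the 3 states in 1 fit over 6 libraries. No pseudocount or filter on low values was used beyond a peak in every library, which favours stronger sites. Genes and starts were those of GENCODE M21, and Python 3.11.15 with numpy 2.4.6, pandas 2.3.3, scipy 1.17.1, pysam 0.24.0 and matplotlib 3.10.9 was used for the rest. limma, the merging, the pileups and the motif search were tested on simulated data. Percentiles are ranks of fold enrichment within the whole list of a library. Read depths are not given by the lists, and the read numbers that the study reports in its supplement were not used here. Replicates limit the precision to 2 values per state.

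The named sites were the strongest promoter site and the strongest site away from promoters of each gene, up to 10 sites per comparison past the threshold by size of the difference, and up to 3 sites per call pattern. The sequences to show were chosen after the values were seen. The genes, the lists and the motifs were chosen with earlier results of these data known. Alternatives were other normalizations, a replicate block, stricter or equally long lists, other merging, windows and starts, and each library left out. The 2 input libraries were not analysed here.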

Additional observations from a re-analysis of the deposited data

How the results depend on the processing

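A site below a pileup of 16 to 25 has no value, which limits the calls. The median fold enrichment of the tested sites was higher in the reactivated libraries, so that the comparisons of reactivated cells rest on centring. The part of sequencing depth in either was not tested. Of the alternatives, 183 values of counts and shares stayed within the limits set and 52 moved. Of the values of the member sites called in each comparison, 352 kept their direction and their side of the threshold, 123 kept their direction and lost the call, and 14 changed direction. Of these, 11 were without centring. For reactivated against activated they were *Etv5* -0.1 kb, *Etv1* +0.1 kb, *Etv5* +10.6 kb and *Spry1* -0.1 kb, with 0.00746, 0.00778, 0.0409 and 0.0925. For reactivated against quiescent they were *Etv1* +0.9 kb, *Etv5* +10.6 kb, *Spry2* -0.6 kb, *Spry1* -0.1 kb, *Spred2* +1.2 kb, *Etv1* -0.6 kb and *Spry4* +22.5 kb, with 0.00751, 0.0595, 0.0644, 0.0951, 0.142, 0.221 and 0.290. With the median subpeak *Spry1* -0.1 kb gave 0.106 and 0.0444 in these comparisons, and with the summit pileup *Etv1* -0.6 kb gave 0.0127 against quiescent cells. Sites not called in a comparison are not counted there. The *Spry2*, *Etv1* and *Spry4* differences between quiescent and activated cells had adjusted p-values from 5.68e-08 to 0.252, 0.000268 to 0.0533 and 3.62e-06 to 0.109 over the alternatives (limma). The causes of the changes were not tested.

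Without centring, reactivated against activated gave 12275 called sites (main 5134), with 3 member sites higher in reactivated and 0 higher in activated cells, and reactivated against quiescent gave 15882 (main 8589), with 9 higher in reactivated and 0 higher in quiescent cells. With the median subpeak, the comparisons gave 507 (main 3098), 1451 and 3664 called sites. The member sites were then 0 higher in activated than in quiescent cells, 2 higher in activated than in reactivated cells and 8 higher in quiescent than in reactivated cells. With missing peaks set to the lowest fold enrichment, the called sites were 5329, 324 and 1718, with 0 member sites for reactivated against activated and 0 in either direction for reactivated against quiescent. With a −log10 q of at least 10, the called sites were 1116, 2739 and 4745, and the member sites were 0 higher in activated than in quiescent cells and 0 higher in reactivated than in quiescent cells, since the 3 sites away from promoters then lacked a peak in some library and were not tested. With the summit pileup over the genome-wide background, chosen after seeing the data, reactivated against activated gave 3357 called sites and 7 member sites higher in activated cells, and reactivated against quiescent gave 6 member sites higher in reactivated and 8 higher in quiescent cells. By that measure *Etv1* +0.1 kb was also lower in quiescent than in activated cells (log2 difference -0.95, adjusted p = 0.00213, limma).

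Leaving out 1 library at a time, where the lone library of a state was assumed to vary like the others, gave 1853 to 2491 called sites for quiescent against activated, 1039 to 5636 for reactivated against activated, and 4529 to 10048 for reactivated against quiescent. The lowest came without the second quiescent library for the first and without the first reactivated library for the others. Member sites higher in activated than in reactivated cells were 3 to 12 (3 without the first and 6 without the second reactivated library, 7 without the second activated library). Sites called in reactivated cells alone were 14 to 23 (23 without the second reactivated library) and those called in activated and reactivated cells 1 to 6 (6 without the second activated library, 2 without the first activated or the first quiescent library). Member sites higher in activated than in quiescent cells were 2 or 3, among the sites with a peak in every library kept (24 to 26).

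With lists of equal length, member sites called in reactivated cells alone were 1, in quiescent and reactivated cells 2, and in activated and reactivated cells 0, and the reactivated libraries had peaks at 35 and 29 of the 52 sites. With a −log10 q of at least 10 there were 2 in quiescent and reactivated and 3 in activated and reactivated cells, and the quiescent libraries had peaks at 24 and 20. With 100 kb on each side, 3 were called in activated and reactivated cells. Over whole sites, CIC octamers were in 20.0% (4.28% of all sites) and E-boxes in 41.2% (30.1% of all sites).

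Replicate numbers did not pair the libraries: the correlations of the deviations of same-numbered libraries were -0.001 (quiescent and activated), 0.04 and -0.02. With a replicate block, 3231, 5290 and 8731 sites were called, with 3 member sites higher in activated than in quiescent cells, 11 higher in activated than in reactivated, and 3 higher and 14 lower in reactivated than in quiescent cells.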

Other observations

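Most of the 42 sites whose calls differed between the libraries of a state were weak. Of them, 24 had a peak in 1 library, 2 in 2, 10 in 3, 3 in 4 and 3 in 5. Those described here were chosen after their values were seen. *Etv5* -32.2 kb, in an intron of *Dgkg*, a diacylglycerol kinase gene, had a fold enrichment of 4.08 in 1 quiescent library and 7.74 and 9.04 in the reactivated libraries, and no peak in activated cells, beside the site 29.1 kb upstream that was called in quiescent and reactivated cells. *Etv1* +56.9 kb, in an intron, had 3.58 in 1 activated library and 7.34 and 5.45 in the reactivated libraries. *Dusp4* -14.4 kb had 3.68 and 2.52 in quiescent cells, 2.71 in 1 activated library, and 7.47 and 4.39 in reactivated cells. At *Spry1*, 3 sites between 14.3 and 32.9 kb downstream had a peak in 1 activated and both reactivated libraries and in no quiescent library, with fold enrichment of 3.15 to 4.72.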
